A study of Homo sapiens with 15 samples.

Results

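Chromatin accessibility at the loci of 9 nephron progenitor genes (SIX2, SIX4, CITED1, SALL1, OSR1, EYA1, WT1, MEOX1 and GDNF) was examined in SETD2 WT, KO and rescue cells by ATAC-seq, a method that uses the transposase Tn5 to place adapters in open DNA. The genes were listed by name, and a locus was the GENCODE v44 gene body with 20 kb on each side. All 9 genes were found, among 19650 protein-coding loci that held a peak in any library, and their loci held 105 of the 295008 merged regions with a peak in at least 2 libraries. The cells are RPTEC, a human renal proximal tubule epithelial line kept under hTERT selection. WT cells are unedited RPTEC. KO1 and KO2 are each 1 clone with CRISPR frameshifts on both alleles of SETD2, the histone methyltransferase that writes H3K36me3. Rescue1 and Rescue2 are clones in which full-length human SETD2 was put back by lentivirus and selected with blasticidin, and the deposited names of both carry the name of the KO2 clone, a parentage that the labels do not state. Each of the 5 groups had 3 libraries. The 3 libraries of a clone share that clone, so a test over libraries speaks of these particular lines.

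Nephron progenitors are the mesenchymal cells that cap the tips of the ureteric bud in the fetal kidney, where they either renew or turn into the epithelium of the nephron. SIX2 holds them in the renewing state, EYA1 is a phosphatase and coactivator that works with SIX2 and its relatives, OSR1, SALL1 and WT1 are zinc finger transcription factors of the same cells, and CITED1 is a transcriptional coregulator that marks the youngest of them. GDNF is the ligand they secrete to make the ureteric bud branch through its receptor RET. Adult tubule cells no longer use this programme.

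Of the 9 loci, EYA1 gained the most bases under peaks in SETD2 KO, and rescue lost most of them again. A locus was called different where the libraries of the compared groups did not overlap. The Wilms tumour gene WT1 gained fewer and did not return to the WT range, OSR1 was slightly lower in KO, and the other 6 loci overlapped between KO and WT. All 6 KO libraries lay above all 3 WT libraries at 2 of the 9 loci (EYA1 and WT1), a pattern seen at 13.3% of all loci, and below them at 1 (OSR1), against 11.9% of all loci. Rescue lay below KO in all libraries at 1 locus (EYA1; 2.82% of all loci) and above it at 1 (MEOX1; 11.1% of all loci). The median difference between KO and WT was -113.5 bases over the 9 loci and -9.25 bases over all loci, and between rescue and KO it was -62.7 bases over the 9 and 192.8 bases over all. Counts of 2 and 1 of 9 in KO are near the shares over all loci, so the members are described singly.

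Peaks were called per library and the lists hold no read counts, so a locus was measured by its bases under called peaks. The paper reports sequencing depth in its supplement, and those values were not used here. A region without a peak is below the calling threshold, not closed. Lists ran from 196969 to 212373 peaks in WT, 204028 to 254650 in KO and 208067 to 265193 in rescue on the main chromosomes, with KO2 replicate 3 and Rescue2 replicate 1 the longest of their groups. Of 11 proximal tubule markers, 4, among them SLC34A1 and PAX8, had a peak within 500 bp of the gene start in all 3 WT libraries, and 6, among them HNF4A, AQP1 and CUBN, had one in no library of any group. At epithelial marker loci the summed bases were 27300 to 30896 in WT and 22639 to 26003 in KO. Of these 6 loci, 4 (CDH1, KRT18, KRT19, CLDN4) were lower in every KO library, against 11.9% of all loci. The sums at stromal markers were 12096 to 13790 in WT and 13866 to 16020 in KO. Of these 5 loci, 1 (DCN) was higher in every KO library, against 13.3% of all loci. Endothelial markers summed to 13945 to 16464 in WT and 16897 to 18869 in KO, and 1 of 4 (KDR) was higher in every KO library. Blood markers summed to 10452 to 11608 in WT and 11176 to 12502 in KO, and 1 of 4 (PTPRC) was higher. Both counts stand beside the same 13.3% of all loci. Podocyte markers, of interest because WT1 is also a podocyte gene, summed to 13298 to 16552 in WT and 13141 to 15870 in KO. Of these 5 loci, 1 (NPHS1) was lower in every KO library and 1 was higher. No marker locus was at 0, and the part of these marker differences in the results below was not tested.

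**Figure D1:**
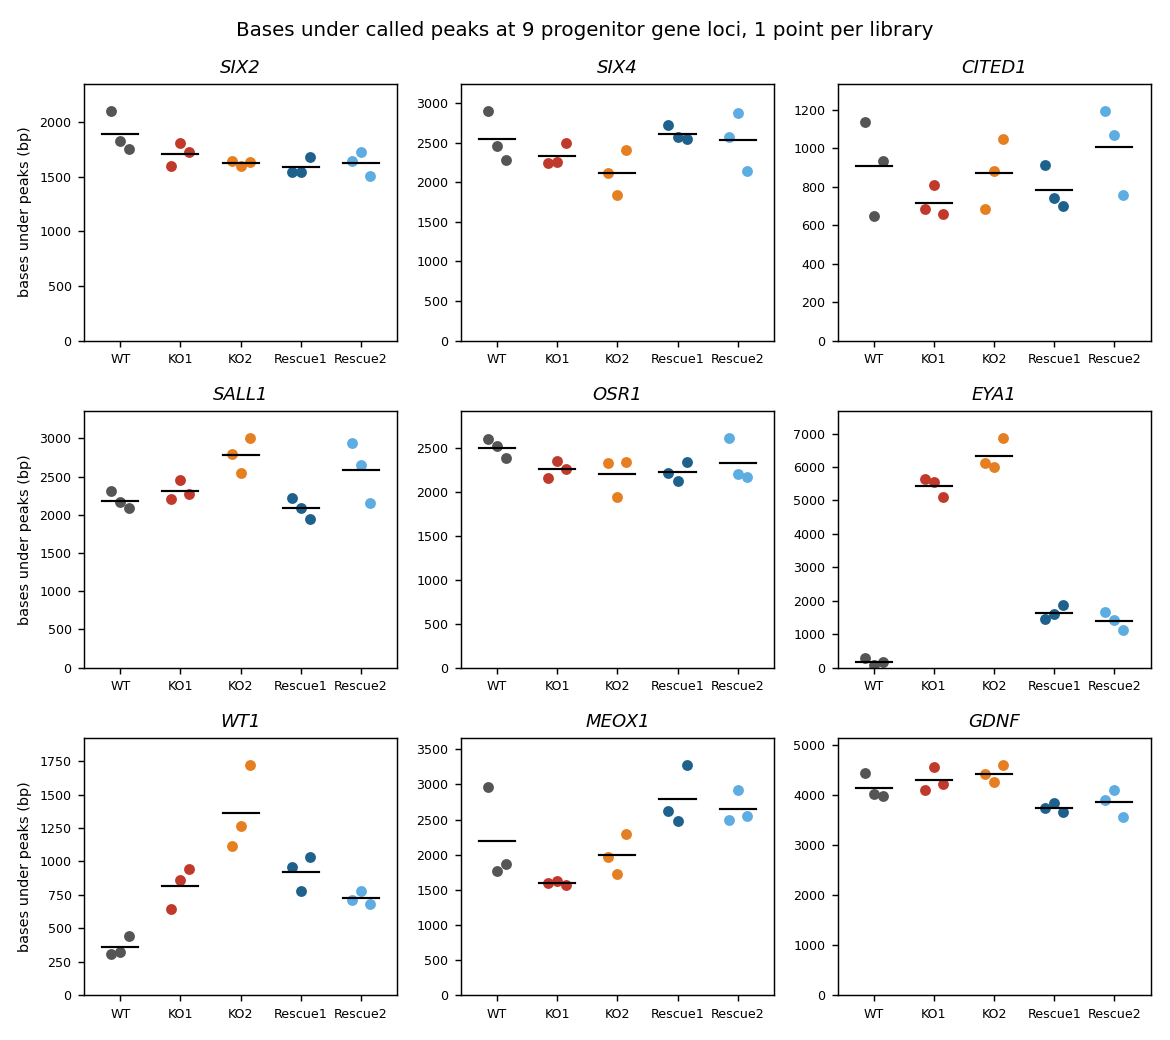
Bases under called peaks (bp) at each of the 9 loci, gene body plus 20 kb, with 1 point per library and a black line at the mean of each group of 3. EYA1 rises from 78 to 289 bases in WT to between 5117 and 6856 in KO and stands at 1116 to 1884 in rescue, whereas SIX2, SIX4 and CITED1 overlap between WT and KO.

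EYA1 lies on the minus strand of chromosome 8 (hg38, chr8:71197433-71592025) and is the longest of the 9 genes. The WT libraries held 289, 78 and 176 bases under peaks at the locus. The KO1 libraries held 5629, 5557 and 5117 and the KO2 libraries 6122, 5992 and 6856. Every KO library was thus at least an order of magnitude above every WT library, and all KO2 libraries were above all KO1 libraries. The mean was 5879 ± 596 bases in KO (SD, n = 6) and 181 ± 106 in WT (SD, n = 3), a ratio of 32.5. In the exact two-sided permutation test this gave the smallest p the design allows, 0.0238 from 84 splits of the labels (adjusted p = 0.0946 over all loci). In KO against WT no locus passed the threshold of 0.05 after adjustment. The difference of means ranked 43 among 19650 loci. Bases and ranks are not scaled for length, and the EYA1 locus spans 434.6 kb. Per kb of locus, EYA1 held means of 0.416 bases in WT and 13.5 in KO, and WT1 4.05 and 12.4. The KO means per kb of the other loci ran from 17.4 (CITED1) to 64.8 (GDNF). In limma on log2(bases + 200) over the same loci the change was 4.03 on the log2 scale (adjusted p = 6.51e-08).

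Rescue took EYA1 down but not to WT. The Rescue1 libraries held 1445, 1598 and 1884 bases and the Rescue2 libraries 1661, 1418 and 1116. They overlap between the rescue clones, lie below every KO library and lie above every WT library. The mean was 1520 ± 260 bases (SD, n = 6), and the fall from KO ranked 18 among all loci (exact permutation p = 0.00216, the smallest of 924 splits, adjusted p = 0.0156). Of the difference between KO and WT means, 23.5% was left in rescue.

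The EYA1 change was made of many separate regions rather than of a few wide ones. Of its 33 regions, 15 were gained, that is, held by every KO library and by no WT library, where 4.79% of all regions were gained. WT libraries occupied 2, 1 and 2 of the 33 regions, KO1 libraries 25, 23 and 25, KO2 libraries 26, 28 and 27, Rescue1 libraries 8, 6 and 7, and Rescue2 libraries 7, 6 and 5. In no group was there a peak within 500 bp of the annotated gene start. The region nearest to it, in the intron 803 bp downstream, was held by 0 WT, 6 KO and 5 rescue libraries, counted as 3 each in KO1, KO2 and Rescue2 and 2 in Rescue1.

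Of the 15 regions gained in KO, 11 had no peak in any rescue library. Over the whole set, 2413 of the 14118 regions gained in KO did so, which is 0.818% of all regions. The centres of the 11 EYA1 regions lay from 29.1 to 332 kb from the gene start, all within introns. One gained region, chr8:71257905-71258625 in an intron 334 kb from the start, kept its peak in all 6 rescue libraries, and in KO its peak had a fold enrichment above that of 69.8% to 94.4% of the peaks of its own library. The other 3 gained regions were held by 1 rescue library (45.4 kb and 30.9 kb from the start) or by 5 (803 bp). Fisher's exact test gave p = 0.0119 for a region of the KO pattern and p = 0.00216 for one of the rescue pattern, the smallest possible. No region passed after adjustment over all regions (smallest adjusted p 0.164 and 0.101), whereas 31882 and 15605 regions had an unadjusted p under 0.05.

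A further 4 EYA1 regions were held by all KO libraries and by some WT libraries. The regions chr8:71356565-71357132 and chr8:71361576-71362413 overlap annotated UTRs and lie within 500 bp of starts of shorter EYA1 transcripts, 235 and 230 kb into the gene. Peaks there were found in 1 and 2 WT libraries and in all KO and rescue libraries. The region chr8:71547555-71547836, at a UTR 44.3 kb from the start and again near the start of a shorter transcript, was held by 1 WT, all 6 KO and 1 rescue library. In the intronic region chr8:71520188-71520743, 71.6 kb from the start, 1 WT library had a peak that ranked at 17.9% of its list by fold enrichment. The KO peaks there ranked at 96.3% to 99.2% and the rescue peaks at 97.0% to 99.6%. This region remained among the strongest peaks of the rescue libraries. Fold enrichment is relative to the background of each library, so the ranks describe each list and are no comparison of height.

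**Figure D2:**
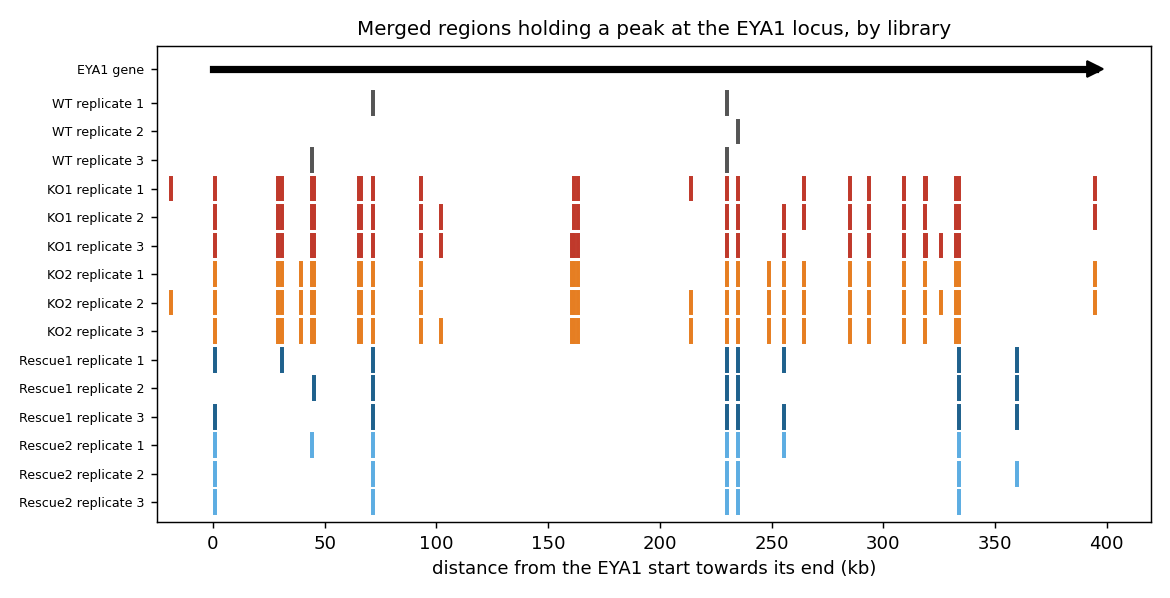
Merged regions that hold a peak at the EYA1 locus, with 1 row per library and distance from the gene start towards its end (kb) on the horizontal axis. Tick widths are not to scale, and the black bar is the gene with an arrow in the direction of transcription. KO libraries hold 23 to 28 regions along the whole gene, WT libraries 1 or 2, and rescue libraries 5 to 8 at recurring positions.

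The rise covered both ends of the gene and part of its surroundings. In the portion of the gene nearer its start, bases under peaks were 0 to 87 in WT, 2589 to 3681 in KO and 417 to 908 in rescue. In the portion nearer its end they were 78 to 212, 2528 to 2937 and 541 to 1381. Over 200 kb beyond the gene end, WT held 0 bases in all libraries, KO 2577 to 3186 and rescue 1315 to 3049. There the rescue libraries overlapped KO, unlike within the gene body, where they held 1116 to 1884 bases against 5117 to 6618. Over 200 kb before the gene start, the groups overlapped (316 to 471, 365 to 1046 and 196 to 384 bases in WT, KO and rescue).

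In the central 200 bp of the 11 EYA1 regions that reversed in rescue, the median GC content was 43.5%, against 47.5% over all regions. The AP-1 word TGANTCA, searched on both strands, occurred in 4 of the 11 (36.4%), against 27.5% of all regions. The FOX word TGTTTAC was in 2 of 11 (18.2%; 3.51% of all regions), the WT1 and EGR word GNGTGGGNG in 2 (18.2%; 5.41%) and the word AACCTGA, bound by SIX2 and its relatives, in none (0 of 11; 2.75%). With 11 regions these shares are a description, and a match is no evidence of binding.

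The Wilms tumour gene WT1 (chr11:32387775-32435564, minus strand) was the second locus called above WT in KO. The WT libraries held 305, 319 and 443 bases, the KO1 libraries 641, 861 and 941 and the KO2 libraries 1113, 1266 and 1719. The groups did not overlap, and KO2 was above KO1 in every library. KO replicate values thus spread widely, and the highest one came from KO2 replicate 3, the KO library with the longest list. With all lists cut to an equal 150000 peaks the groups still did not overlap (167 to 203 in WT, 569 to 1093 in KO). By number of occupied regions they did overlap, with 2 regions in every WT library, 2 in KO1 replicate 1 and 4 to 6 in the other KO libraries. The mean was 1090 ± 375 bases in KO (SD, n = 6) and 356 ± 76.0 in WT (SD, n = 3), a ratio of 3.07 (exact permutation p = 0.0238, adjusted p = 0.0946). In limma the change was 1.17 on the log2 scale (adjusted p = 0.00334). The rise ranked 1804 among all loci.

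The Rescue1 libraries held 958, 777 and 1036 bases at WT1 and the Rescue2 libraries 712, 777 and 682. They overlapped KO (exact permutation p = 0.128, adjusted p = 0.236) and all lay above WT. The overlap was with KO1 alone. All libraries of Rescue1 and of Rescue2 lay below all KO2 libraries, which held 1113 to 1719 bases (exact permutation p = 0.1 for each rescue clone against KO2, the smallest possible). Of the difference between KO and WT means, 63.7% was left. The difference between rescue and KO was -266.5 bases, and in the limma fit it was -0.30 on the log2 scale (adjusted p = 0.186).

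One WT1 region was gained in KO and kept in rescue. No peak lay within 500 bp of the gene start in any library. A region in an exon of a WT1 transcript, 43.2 kb from the gene start and within 500 bp of the start of a shorter transcript, was held by every KO and every rescue library and by no WT library. It was 1 of 2 member regions gained in KO and kept in all rescue libraries, the other being in EYA1, where 2.14% of all regions did so. It was the only gained region outside EYA1.

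In the region chr11:32434479-32434923, in a coding exon 863 bp from the gene start, occupancy differed between clones. This region lies within 500 bp of another annotated WT1 transcript start. It was held by 2 WT, 0 KO1, 3 KO2, 3 Rescue1 and 0 Rescue2 libraries, so neither the KO clones nor the rescue clones were alike there.

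SIX2 (chr2:45005182-45009452) and SIX4 (chr14:60709539-60724351) encode homeobox proteins, SIX2 being the defining factor of renewing progenitors. At SIX2 the WT libraries held 2100, 1828 and 1749 bases, the KO1 libraries 1596, 1806 and 1726, and the KO2 libraries 1648, 1600 and 1636. KO was lower on average (1669 ± 82.0 against 1892 ± 184, SD, n = 6 and 3), with 5 of 6 KO libraries under all WT libraries (exact permutation p = 0.0476, adjusted p = 0.146). The rescue libraries, at 1507 to 1728 with a median of 1593, stayed with KO (exact permutation p = 0.221, adjusted p = 0.349). A peak at the SIX2 promoter, within 500 bp of the gene start, was present in all 15 libraries.

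One SIX2 region was lost in KO. The region chr2:45014136-45014375, 4.80 kb before the SIX2 start and within 500 bp of a start of the lncRNA gene ENSG00000231156, held a peak in all 3 WT libraries and in none of the KO or rescue libraries. It is 1 of 3 member regions lost in KO (2.48% of all regions were lost), and none of the 3 was regained in all rescue libraries. Over the whole set, 927 of the 7308 lost regions were regained, which is 0.314% of all regions. Its whole sequence, 5′ to 3′ on the plus strand of hg38, shows the WT1 and EGR word GNGTGGGNG in capitals.

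SIX2 region: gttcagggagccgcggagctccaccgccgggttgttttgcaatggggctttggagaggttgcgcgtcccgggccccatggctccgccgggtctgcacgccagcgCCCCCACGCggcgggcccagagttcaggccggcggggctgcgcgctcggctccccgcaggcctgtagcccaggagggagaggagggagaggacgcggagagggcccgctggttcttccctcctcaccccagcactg

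That word is in the central 200 bp of 5.41% of all regions, and the median GC content there is 47.5%, whereas this region has 73.5%.

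At SIX4 the WT libraries held 2898, 2457 and 2285 bases, the KO1 libraries 2243, 2261 and 2501 and the KO2 libraries 2116, 1841 and 2406, and the groups overlapped (exact permutation p = 0.167, adjusted p = 0.327). The Rescue1 libraries, at 2726, 2572 and 2545, were above every KO library, and the Rescue2 libraries, at 2572, 2872 and 2143, were not all so. Over both clones the difference from KO was 343.7 bases (exact permutation p = 0.0325, adjusted p = 0.0888). The SIX4 locus also contains the promoter of MNAT1, whose region was held by all 15 libraries.

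CITED1 (chrX:72301638-72307187) gave no detectable difference. The WT libraries held 1137, 649 and 935 bases, the KO libraries 660 to 1047 with a median of 745.5 and the rescue libraries 699 to 1192 with a median of 834. The spread within WT alone covered the whole range of the other groups but for the 1192 of Rescue2 replicate 1 (exact permutation p = 0.405 between KO and WT and 0.340 between rescue and KO). None of its 6 regions was gained or lost, and its promoter peak was in all 15 libraries.

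SALL1 and OSR1 are zinc finger factors of early kidney mesenchyme. At SALL1 (chr16:51135982-51152334) the WT libraries held 2308, 2169 and 2086 bases, the KO1 libraries 2204, 2456 and 2270 and the KO2 libraries 2791, 2546 and 3002. KO2 was above WT in every library and KO1 was not (exact permutation p = 0.0952 for both clones against WT, adjusted p = 0.226). The result depends on the window and on the list. With 5 kb flanks the groups separated (1275 to 1333 in WT, 1394 to 1729 in KO), as they did with 50 kb flanks (2086 to 2308 and 2413 to 3558). They also separated with −log10 q of at least 3 (2008 to 2169 and 2204 to 2791), whereas with equal lists they overlapped (1953 to 2169 and 1914 to 2364). Without WT replicate 1 the groups also separated, at SALL1 as at GDNF. In rescue, Rescue1 held 2216, 2092 and 1949 bases and Rescue2 2947, 2649 and 2154, and no test over both clones passed (exact permutation p = 0.310).

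At SALL1, 2 small regions before the gene start were held by all KO2 libraries and no WT library. The region chr16:51154672-51154849, 2.43 kb before the start, was held by 0 WT, 2 KO1, 3 KO2, 0 Rescue1 and 2 Rescue2 libraries. The region chr16:51163479-51163639, 11.2 kb before it, was held by 0, 1, 3, 1 and 2. Neither meets the rule for a gained region, and the first ranked in the lowest 2.29% of each list by fold enrichment where it was called.

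OSR1 (chr2:19351485-19358623) was the only member below WT in all KO libraries. The WT libraries held 2593, 2516 and 2378 bases, the KO1 libraries 2159, 2345 and 2258 and the KO2 libraries 2321, 1936 and 2333. The groups came within 33 bases of each other. The mean was 2225 ± 158 in KO and 2496 ± 109 in WT (SD, n = 6 and 3), a ratio of 0.892 (exact permutation p = 0.0238, adjusted p = 0.0946). The limma fit gave -0.15 on the log2 scale (adjusted p = 0.127), and with 5 kb flanks the groups overlapped (2128 to 2482 in WT, 1936 to 2239 in KO). The rescue libraries, at 2115 to 2605 with a median of 2205, overlapped KO (exact permutation p = 0.639). None of its 6 regions was lost in all KO libraries, and the region chr2:19369467-19369808, 11 kb before the start, was held by 3 WT, 2 KO1, 1 KO2 and all 6 rescue libraries.

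MEOX1 (chr17:43640389-43661922), a homeobox gene used as a marker of cap mesenchyme, was the member whose bases rose in rescue. The WT libraries held 2967, 1761 and 1864 bases, the KO1 libraries 1591, 1619 and 1567 and the KO2 libraries 1963, 1726 and 2300. WT replicate 1 stood apart from the other WT libraries, and KO overlapped WT (exact permutation p = 0.262, adjusted p = 0.439). KO1 lay below all WT libraries and KO2 did not. The Rescue1 libraries held 2625, 2477 and 3271 bases and the Rescue2 libraries 2491, 2919 and 2555. Every rescue library was above every KO library, with means of 2723 ± 313 and 1794 ± 287 (SD, n = 6 each), a ratio of 1.52 (exact permutation p = 0.00216, adjusted p = 0.0156; 22.8% of all loci passed in this direction). The rescue values also exceeded WT replicates 2 and 3.

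The result at MEOX1 depended on the window. With 5 kb flanks the KO libraries were all below WT (371 to 793 against 849 to 1321) and the rescue libraries held 791 to 1115, overlapping KO by 2 bases. With 50 kb flanks KO and WT overlapped and rescue was above KO (5335 to 6752 against 3400 to 5223). By number of occupied regions rescue overlapped KO, at 10 to 14 against 8 to 11. A promoter peak was present in 3 WT, 1 KO1, 3 KO2 and all 6 rescue libraries.

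MEOX1 held 2 of the 3 lost member regions and the 1 region gained in rescue against KO (0.910% of all regions). The intronic region chr17:43646174-43646434, 15.6 kb from the start, was held by all WT libraries and by none of the KO or rescue libraries. The region chr17:43665596-43665996, 3.87 kb before the start, was held by all WT, no KO, 1 Rescue1 and 1 Rescue2 library. The region chr17:43681118-43681315, 19.3 kb before the start and inside the lncRNA gene LINC02594, was held by 2 WT, 0 KO and all 6 rescue libraries, and beside it chr17:43680547-43681046 was held by 5 rescue libraries and no other. The sequences of the first 3 are shown because they are the MEOX1 regions called lost in KO or gained in rescue, on the plus strand of hg38 (the second as its central 300 bases, chr17:43665646-43665945). Capitals mark the CTCF word AGGNGGC in the first, the AP-1 word, the TEAD word GGAATG and the WT1 and EGR word in the second, and the AP-1 word and the homeobox word TAATTA in the third, on either strand.

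MEOX1 intron region: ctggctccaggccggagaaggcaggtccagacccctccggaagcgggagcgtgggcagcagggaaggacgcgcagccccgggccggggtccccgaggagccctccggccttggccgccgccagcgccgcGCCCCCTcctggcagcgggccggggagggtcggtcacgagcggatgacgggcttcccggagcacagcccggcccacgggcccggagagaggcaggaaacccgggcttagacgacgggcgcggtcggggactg
MEOX1 upstream region: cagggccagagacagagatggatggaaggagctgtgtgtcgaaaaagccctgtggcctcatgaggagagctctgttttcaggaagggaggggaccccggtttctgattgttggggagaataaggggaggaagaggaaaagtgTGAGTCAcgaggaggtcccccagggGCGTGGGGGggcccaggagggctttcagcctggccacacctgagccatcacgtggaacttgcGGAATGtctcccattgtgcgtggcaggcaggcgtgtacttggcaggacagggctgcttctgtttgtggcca
MEOX1 distal region: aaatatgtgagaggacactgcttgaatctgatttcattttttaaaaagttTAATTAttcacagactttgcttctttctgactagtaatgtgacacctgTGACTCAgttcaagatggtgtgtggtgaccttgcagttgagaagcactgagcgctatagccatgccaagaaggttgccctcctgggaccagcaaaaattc

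The CTCF, TEAD and homeobox words occur in the central 200 bp of 17.3%, 15.5% and 3.80% of all regions. The intron region has a GC content of 78.5% and the distal one of 42.0%.

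**Figure D3:**
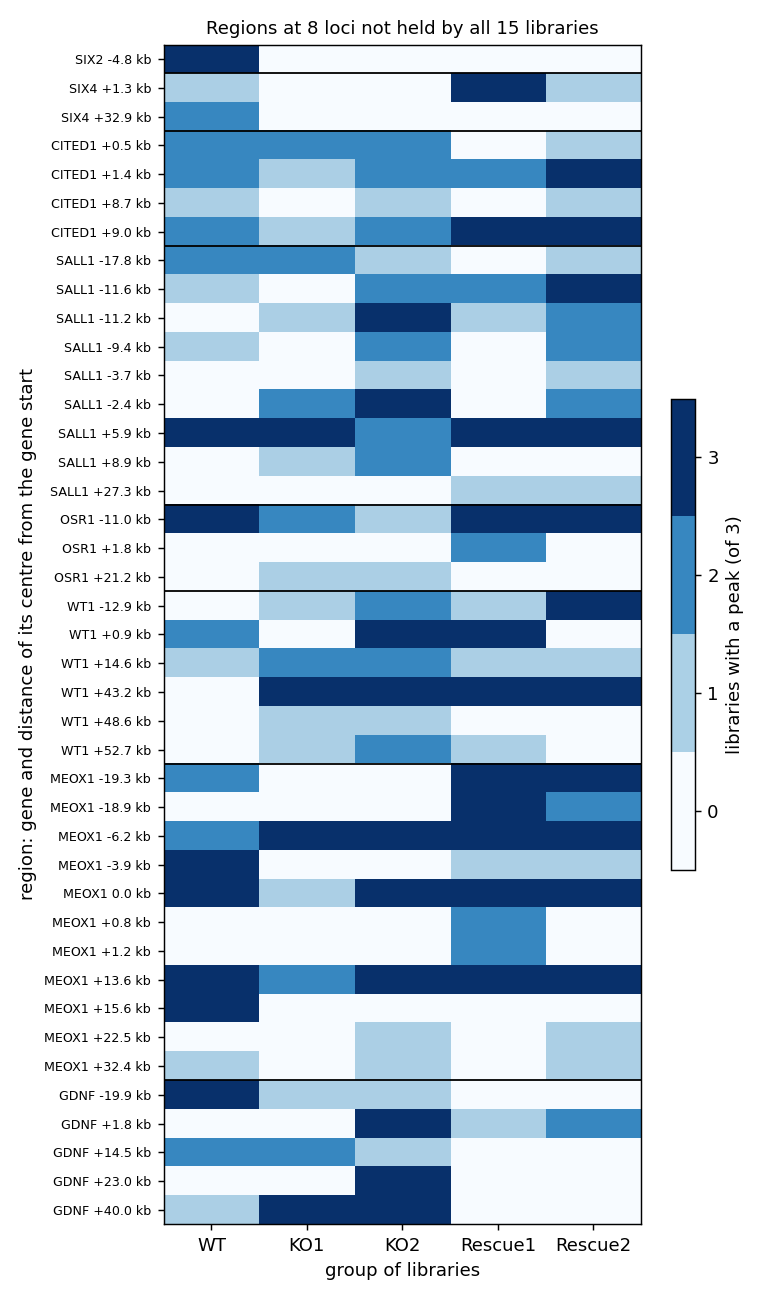
Number of libraries with a peak (0 to 3, shade) in each group, for the regions at the 8 loci other than EYA1 that were not held by all 15 libraries. Rows give the gene and the distance of the region's centre from the gene start (kb, negative before the start). The WT1 region at +43.2 kb is filled in KO and rescue and empty in WT, the SIX2 region at -4.8 kb is filled in WT alone, and the MEOX1 region at -19.3 kb is empty in KO alone.

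GDNF (chr5:37812677-37840041), the only secreted ligand of the set, held 4443, 4028 and 3987 bases in WT, 4104, 4567 and 4227 in KO1 and 4435, 4264 and 4599 in KO2. KO and WT overlapped (exact permutation p = 0.214, adjusted p = 0.386). With 50 kb flanks every KO library was above every WT library (7338 to 7995 against 6032 to 6964), whereas with 5 kb flanks they overlapped. The Rescue1 libraries held 3737, 3851 and 3661 bases and the Rescue2 libraries 3916, 4110 and 3573. Of these, 5 lay below all KO libraries and Rescue2 replicate 2 exceeded KO1 replicate 1 by 6 bases. The rescue mean of 3808 ± 193 lay below the KO mean of 4366 ± 199, a difference of -558 bases (SD, n = 6 each; exact permutation p = 0.00433, adjusted p = 0.0236; 4.65% of all loci passed in this direction). With 5 kb flanks the adjusted p was 0.375.

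One GDNF region was lost in rescue. The region chr5:37799861-37800256, 40.0 kb from the start and beyond the gene end, was held by 1 WT, all 6 KO and no rescue library, and it was the only region lost in rescue outside EYA1 (12 of 105 member regions were lost in rescue, 1.24% of all regions). Its central 300 bases on the plus strand of hg38 (chr5:37799909-37800208) are shown with the FOX word TGTTTAC in capitals, in its reverse form.

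GDNF region: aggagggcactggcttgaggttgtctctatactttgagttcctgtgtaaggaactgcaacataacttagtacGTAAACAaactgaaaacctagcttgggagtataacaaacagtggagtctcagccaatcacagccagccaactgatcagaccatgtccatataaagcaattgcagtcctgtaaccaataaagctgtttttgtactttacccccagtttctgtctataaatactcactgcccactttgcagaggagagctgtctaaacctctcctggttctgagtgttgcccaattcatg

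The word is in the central 200 bp of 3.51% of all regions. The GDNF promoter peak was in all 15 libraries. Inside the gene, chr5:37817022-37817142 in an intron was held by the 3 KO2 libraries and by no other, and chr5:37838209-37838350 by 3 KO2, 1 Rescue1 and 2 Rescue2 libraries.

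Over the 9 loci, 16 of 105 regions were gained in KO and 3 lost. Outside EYA1 the 72 regions gave 1 gained and 3 lost, where 4.79% of all regions were gained and 2.48% lost. Of the 72, 31 were held by all 15 libraries, as were 35.6% of all regions. Peaks within 500 bp of the annotated gene start were mostly constant. They were present in all 15 libraries at SIX2, SIX4, CITED1, SALL1, OSR1 and GDNF and in none at EYA1 and WT1. Regions near other annotated transcript starts of EYA1 and WT1 did hold peaks. Of the 105 regions, 5 were held by all KO2 and no KO1 libraries and 0 by all KO1 and no KO2 libraries, where 2.55% and 1.05% of all regions were so.

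**Figure D4:**
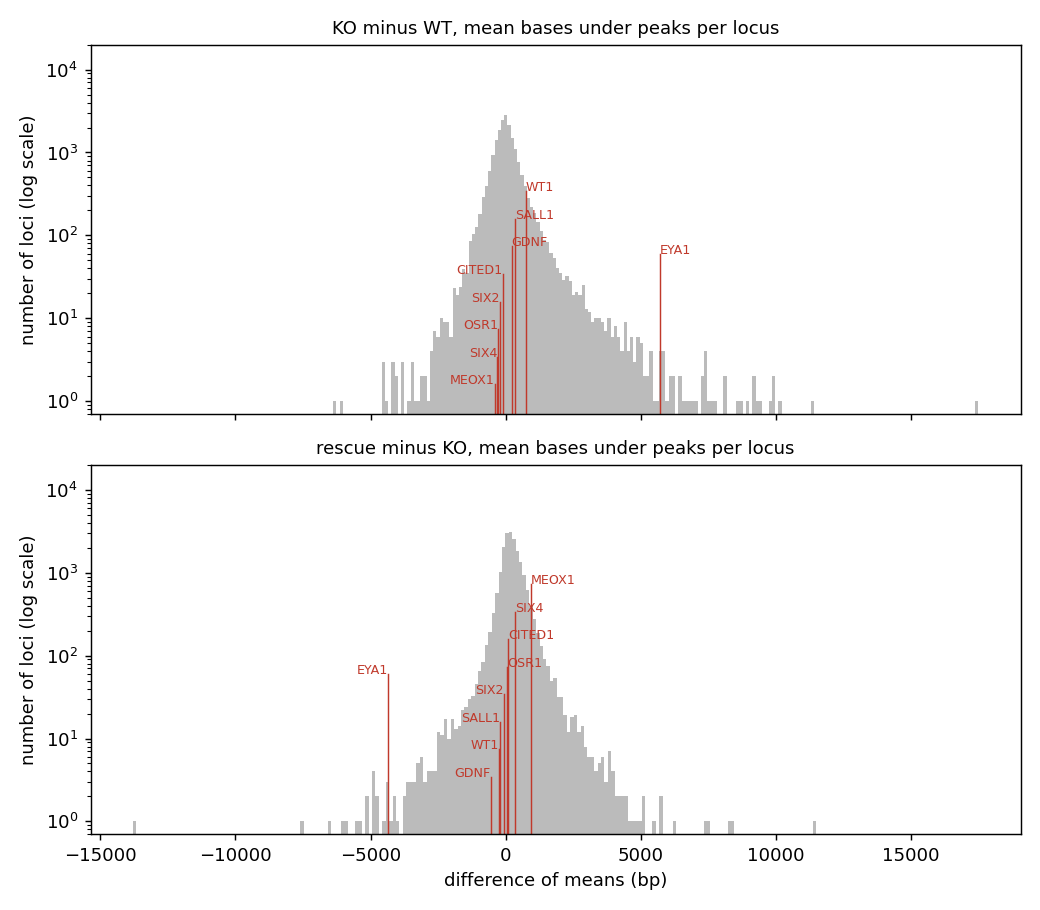
Histograms of the difference in mean bases under peaks (bp) over all 19650 loci, KO minus WT above and rescue minus KO below, with the 9 members marked in red at heights set for legibility and the number of loci on a log axis. EYA1 lies far out on the side of KO above WT and of rescue below KO, and the other 8 members lie within the bulk of loci.

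For each member whose KO and WT libraries did not overlap, the protein-coding loci on other chromosomes whose bases followed it most closely over the 15 libraries were listed. The points share libraries and groups, so the correlation is a description. For EYA1 they were GRM3 (Pearson r = 0.985), HLA-DRB1 (0.980) and SPSB4 (0.980). At GRM3, a glutamate receptor gene, bases ran from 78 to 162 in WT, 2338 to 3286 in KO and 565 to 1016 in rescue. For WT1 they were FAM124A (0.950), PI15 (0.905) and ADAMTS2 (0.903). ADAMTS2, which encodes a procollagen protease, held 0 bases in all WT libraries, 2100 to 4369 in KO and 1696 to 2391 in rescue. For OSR1 they were ENSG00000283128 (0.915), PYCR1 (0.892) and IRF1 (0.888).

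Of 18 further progenitor genes, 2 were above WT in all KO libraries (ITGA8 and EYA4) and 1 below (COL2A1), against 13.3% and 11.9% of all loci. At EYA4, a paralogue of EYA1, WT held 1093, 1041 and 1169 bases, KO1 3393, 3930 and 3178, and KO2 3860, 3971 and 4469. Rescue held 1855 to 2675 bases there, below all KO and above all WT libraries (exact permutation p = 0.00216, adjusted p = 0.0156). At ITGA8, an integrin subunit of the cap mesenchyme that is needed for GDNF expression, bases were 290 to 401 in WT, 785 to 1764 in KO and 311 to 816 in rescue, with a promoter peak in the 3 KO1 libraries and no other. At COL2A1, a collagen gene, bases were 1555 to 2066 in WT, 1272 to 1544 in KO and 1655 to 2336 in rescue. Among 12 genes of induced progenitors and the first epithelium, such as WNT4, LHX1 and PAX8, none separated KO from WT in either direction.

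Of 12 genes of GDNF signalling, 1 was above WT in all KO libraries (BMP7) and 2 below (GFRA1 and NRTN), against 13.3% and 11.9% of all loci. Those counts are near the shares over all loci. At BMP7, a growth factor that keeps progenitors alive, bases were 1029 to 1316 in WT, 1700 to 2475 in KO and 1704 to 2659 in rescue. At GFRA1, the co-receptor that binds GDNF, they were 10340 to 12560 in WT, 8858 to 10274 in KO and 10175 to 12170 in rescue. At NRTN, a ligand related to GDNF, they were 2063 to 2296, 1126 to 1536 and 1553 to 2077 (rescue above KO in every library, exact permutation p = 0.00216, adjusted p = 0.0156). At RET, the receptor, KO overlapped WT (3251 to 3668 against 3021 to 3520) and rescue was above KO in every library (3731 to 4754; exact permutation p = 0.00216, adjusted p = 0.0156).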

How the data were processed

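The authors aligned ATAC-seq reads with BWA (version 0.7.17 in the submitters' processing notes) to hg38 and called peaks per library with MACS2 2.2.7.1. The deposited lists give each peak's interval, a score, the fold enrichment over local background as a ratio, the −log10 p and −log10 q, and in a last column the summit offset, an other value in bp as deposited. Fold enrichment and −log10 values were used within a list alone.

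Chromosomes 1 to 22, X and Y were kept, and peaks were merged where they shared at least 1 bp. Gained meant a peak in all libraries of the first group and none of the second. Bases under peaks were compared by an exact two-sided permutation test with Benjamini-Hochberg adjustment over 19650 loci (Python 3.11.15, NumPy 2.4.6, SciPy 1.17.1) and by limma 3.58.1 in R 4.3.3 on log2(bases + 200). KO was KO1 and KO2, and rescue was Rescue1 and Rescue2. The comparisons share the KO libraries. The smallest p with 3 libraries against 3 is 0.1. Replicates of a group may be technical, and p-values measure the spread between libraries alone. Methods were tested on simulated data.

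All 9 members were named. In each gene list at most 3 genes with separated KO and WT libraries were named, by size of relative difference, and for EYA1, WT1 and OSR1 the 3 most similar loci. RET, ITGA8's promoter and ROBO2 were picked with their values in view. The members and lists were chosen with earlier results of these data known. Sequences and coordinates come from the hg38 reference, whose 24 chromosomes matched the lists. Some marker genes and sequences are not reported here. Other flanks, thresholds, list lengths, clones and libraries were tried.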

Additional observations from a re-analysis of the deposited data

Results flagged for a closer look

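At ROBO2, a receptor gene that restrains GDNF expression in the embryo, the KO clones lay on opposite sides of WT. The KO1 libraries held 10465, 11565 and 12484 bases under peaks, the WT libraries 2247, 1756 and 1781, and the KO2 libraries 328, 257 and 468. The difference between the KO1 and KO2 means was 11154 bases. The difference between the clones was not tested across loci. Rescue1 libraries held 0 bases, and Rescue2 libraries 0, 0 and 109. The value of 109 in Rescue2 replicate 3 stood apart from the other rescue libraries, and so did the 1488 bases of Rescue2 replicate 2 at DAPL1, where the other rescue libraries held 955 to 1124. Chance sets about 1 in 20 groups apart in this way, and 42 groups were examined.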

How the results depend on the processing

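Read depth was not used, so whether an absent peak reflects depth was not tested, and calls at the threshold limit the counts. EYA1 kept its KO and rescue calls of separated groups under every flank, threshold and list length tried, and WT1 its KO call. The cause of the other changes was not tested. Loci with KO above WT (2) became 4 with 50 kb flanks and 1 by number of occupied regions, which ended the call at WT1, and loci below WT (1) became 0 with 50 kb flanks and 2 with KO1 or with KO2 alone. Loci with rescue above KO (1) became 0 with 5 kb flanks or by number of occupied regions, both ending the call at MEOX1, and 2 with Rescue1 alone. Loci with rescue below KO (1) became 2 with −log10 q of at least 3, with equal lists or with Rescue1 alone. Against KO2 alone they became 3 (EYA1, WT1 and GDNF).

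Regions gained in KO (16) became 25 with KO2 alone, 27 under a majority rule and 1 without the EYA1 locus, an alternative added after the data were seen. Regions lost in KO (3) became 5 with 50 kb flanks and 6 under the majority rule. Regions gained in rescue (1) became 0 with equal lists or 5 kb flanks, 4 with Rescue1 alone and 5 under the majority rule. Regions lost in rescue (12) became 21 under the majority rule and 1 without EYA1, those with both calls (11) became 20 and 0, and those lost and regained (0) became 1 under the majority rule.

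Leaving out 1 library gave 2 to 4 loci above WT (4 without WT replicate 1), 1 to 2 below (2 without WT replicate 3 or KO1 replicate 2), 1 to 2 with rescue above KO (2 without Rescue2 replicate 3) and 1 to 2 below (2 without KO1 replicate 1 or Rescue2 replicate 2). It gave 16 to 18 regions gained and 3 to 4 lost in KO, 1 to 2 gained in rescue (2 without Rescue2 replicate 3), 12 to 13 lost in rescue, 11 to 12 gained and then lost and 0 to 1 lost and regained (1 without WT replicate 3). Without Rescue2 replicate 3, SIX4 passed (adjusted exact permutation p = 0.0238).

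No reversal concerned a called difference. For KO minus WT, CITED1 became 24.5 bases with equal lists, 12.8 with 50 kb flanks and -242.5 to 1.5 when 1 library was left out (1.5 without WT replicate 1), GDNF -92 with equal lists and -86.8 with 5 kb flanks, and SIX2 339.2 and MEOX1 168.2 with 50 kb flanks. For rescue minus KO, CITED1 became -38.3 with equal lists and -9.50 with Rescue1 alone, OSR1 -37.3 and -49.3 with 5 and 50 kb flanks, -5 with Rescue1 alone, and -19.1 to 78.9 when 1 library was left out (-10.5 without KO2 replicate 2, -19.1 without Rescue2 replicate 1), and SALL1 38.5 with Rescue2 alone. Fewer libraries (1 rescue clone, or KO2 alone) left EYA1, MEOX1 and GDNF in the same direction with adjusted p from 0.0991 to 0.140.

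Replicate numbers do not pair the libraries: deviations of libraries with the same number correlated at -0.16 to 0.05 over 30 pairs. With the replicate block, an exact permutation test within numbers gave EYA1 in rescue p = 0.00926 (adjusted 0.0485), as had MEOX1 and GDNF, and no KO result could go below 0.0741. In limma the block gave 2433 loci higher and 1848 lower in KO, against 2722 and 2203 without it, and EYA1 at 4.03 on the log2 scale (adjusted p = 2.10e-06).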
